A study of Mus musculus with 8 samples.

Results

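Transcripts of 10 genes of the photoreceptor ribbon synapse were followed in retinas of rd10 mice: Cacna1f, Cacna2d4, Cacnb2, Cabp4, Ctbp2, Bsn, Rims2, Cplx3, Cplx4 and Slc17a7. They were chosen by name, all 10 were found among the 54532 genes of the deposited table as 1 row each, and all 10 were among the 17725 genes that passed the filter on low counts. The libraries were made from retina in 2 groups, 4 labelled sIVs (libraries 2 to 5, which the title of the series explains as small intracellular vesicles) and 4 labelled PBS (read here as phosphate-buffered saline, the control group, libraries 1 to 4). All mice of both groups carry rd10, a mutation of the rod phosphodiesterase gene Pde6b after which rods and then cones are lost. What the vesicles were made from, how and when they were given, and the age and sex of the mice are not given in the sources used here. Each sample is called a replicate biosample, which need not be a separate animal, and p-values rest on the spread among these samples alone.

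Rods and cones signal to bipolar and horizontal cells by releasing glutamate continuously in the dark. At their terminals a protein plate, the synaptic ribbon, holds vesicles close to L-type calcium channels, and light closes these channels by hyperpolarising the cell. Bipolar cells also have ribbons and express several of the same genes, so that a level measured in retina sums over both cell classes. In bulk tissue, fewer cells of a type and less RNA per cell cannot be told apart.

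Library totals ran from 14640235 to 16989737 counts, and the counts of the 10 genes from 960 for Cabp4 to 19718 for Slc17a7. Retinal identity was checked with markers. Gnat1, the rod transducin α subunit, stood at a mean of 6262 CPM in PBS (counts scaled to a fixed library total adjusted by the trimmed mean of M values, TMM), and Grm6, the glutamate receptor of ON bipolar cells, at 213 CPM. Arr3, the cone arrestin gene, stood at 196, 208, 231 and 452 CPM in PBS 1 to 4, against 221, 76.2, 67.9 and 124 CPM in sIVs 2 to 5. Libraries sIVs 3 and sIVs 4 stood apart. Gnat1 was at 0.204 and 0.198 times its PBS mean there, against 1.01 in sIVs 2 and 0.719 in sIVs 5. The 13 rod genes checked were below all PBS libraries in both sIVs 3 and sIVs 4, where 32.6% and 33.2% of all genes were. In sIVs 5 it was 10 of 13, against 29.1%, and in sIVs 2 it was 0, against 21.2%. Results are therefore given by library, and with and without sIVs 3 and sIVs 4.

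Levels of 7 of the 10 genes were between 0.399 and 0.716 times their PBS means in sIVs 3 and sIVs 4: Cacna1f, Cacna2d4, Cacnb2, Cabp4, Rims2, Cplx4 and Slc17a7. Ctbp2 stood at 0.821 and 0.748 times, and Bsn and Cplx3 lay within the PBS range in both libraries. Thus 8 of 10 genes were below every PBS library in sIVs 3, where 32.6% of all tested genes were, and 8 of 10 in sIVs 4, where 33.2% were. In sIVs 2 it was 1 of 10, against 21.2% of genes, and in sIVs 5 it was 5 of 10, against 29.1%. Above every PBS library stood 4 of 10 in sIVs 2 and 3 of 10 in sIVs 5, where 21.7% and 29.8% of genes did. In sIVs 3 and sIVs 4 it was 0 of 10, against 31.7% and 32.3%. The median ratio of the 10 genes to their PBS means was 1.00, 0.564, 0.509 and 0.953 in sIVs 2 to 5.

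Between groups, none of the 10 genes was called by edgeR, DESeq2 or limma-voom. With sample quality weights, limma-voom called 7 lower, where it called 14% of all genes lower and 14% higher. These weights were low for sIVs 2 and sIVs 5 (0.258 and 0.245). By edgeR, all 10 had a negative log2 fold change (sIVs minus PBS, median -0.39), against 51% of all tested genes, whose median was -0.005. Scaled by library totals, 9 of 10 were negative and Ctbp2 stood at 0.03. The edgeR quasi-likelihood test called 0 of 10 at an adjusted p of 0.05, as it called 0% of all genes in either direction. At an unadjusted p of 0.05 it called 2 of 10 lower, Cacna1f and Rims2, against 5.63% of all genes, and 0 of 10 higher, against 9.61%. In 0 of 10 did the groups separate fully, against 3.36% of genes with every sIVs library below every PBS library and 4.42% with every one above. DESeq2 also called 0 of 10, while it called 0.598% of all genes lower and 2.62% higher, and limma-voom called 0 of 10 and 0% of all genes. The sIVs libraries varied more than the PBS libraries for 9 of 10 genes, with standard deviations of log2 CPM up to 0.86 in sIVs (Cabp4) and up to 0.19 in PBS (Cplx3).

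**Figure D1:**
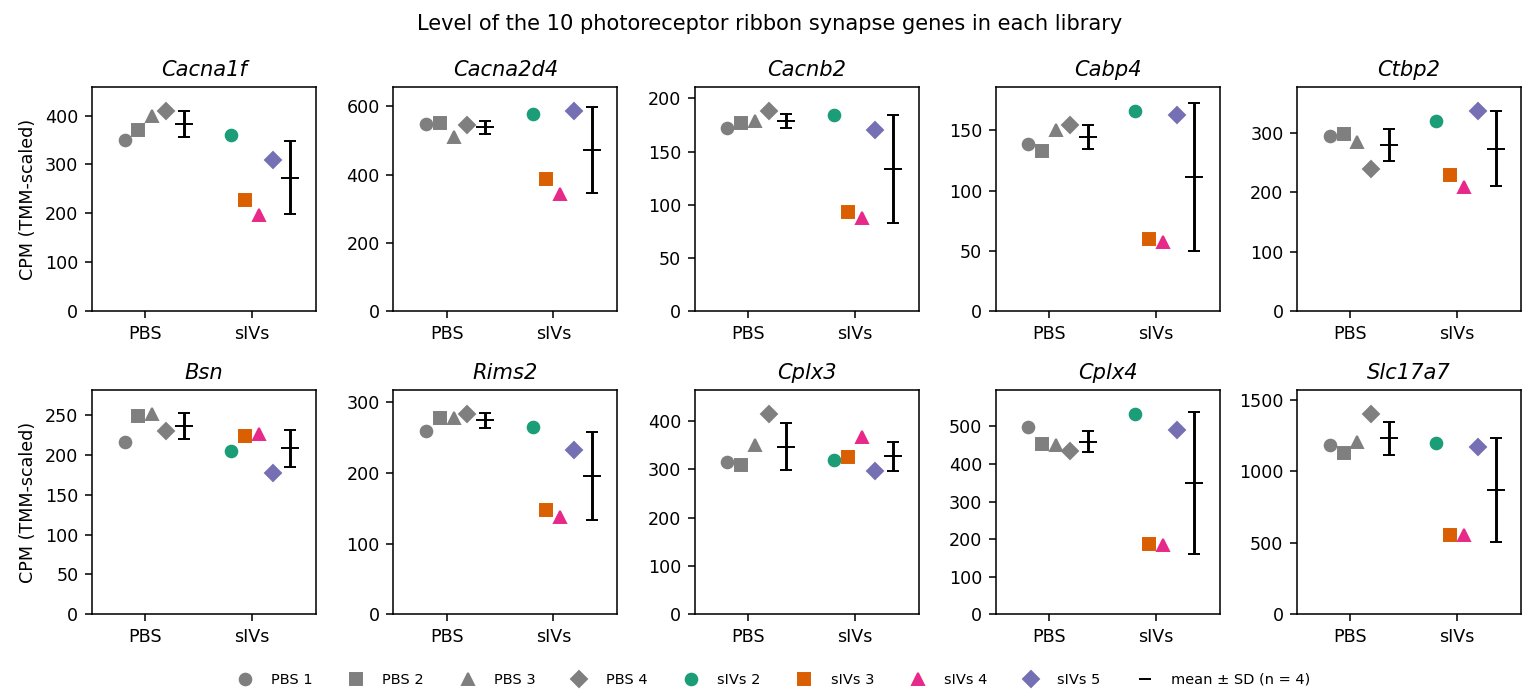
TMM-scaled CPM (linear axes from 0) of each of the 10 genes in each library, with the mean and SD of each group (n = 4) as a black bar. In 7 panels sIVs 3 and sIVs 4 lie far below the other libraries, while Bsn and Cplx3 show no such gap.

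The calcium channel was followed through 4 genes. Cacna1f encodes the pore-forming subunit of Cav1.4, the L-type channel of photoreceptor terminals (ENSMUSG00000031142, chromosome X, 7607083 to 7635196, GRCm38). It stood at 350.8, 370.4, 399.3 and 408.7 CPM in PBS 1 to 4, and at 359.6, 226.4, 197.3 and 308.8 CPM in sIVs 2 to 5. Library sIVs 2 lay inside the PBS range and the other 3 below it. Its log2 fold change was -0.49 ± 0.17 (SE, 95% confidence interval -0.87 to -0.10, edgeR adjusted p = 0.249).

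Cacnb2, the β subunit gene that helps bring the channel to the membrane (chromosome 2, 14603088 to 14987908), stood at 171.7, 176.7, 178.7 and 187.9 CPM in PBS, against 184.2, 93.4, 87.2 and 170.7 CPM in sIVs. Libraries sIVs 3 and sIVs 4 were at about 1 level, far under the narrow PBS range, sIVs 5 was just below it and sIVs 2 within it. Its log2 fold change was -0.42 ± 0.23 (SE, edgeR adjusted p = 0.414). Cacna2d4, the α2δ subunit gene of the same channel (chromosome 6, 119236526 to 119352407), stood at 547.3, 552.7, 510.6 and 545 CPM in PBS, against 577, 386, 343.3 and 585.7 CPM in sIVs. Here sIVs 2 and sIVs 5 were above every PBS library and sIVs 3 and sIVs 4 below every one (log2 fold change -0.19 ± 0.17 SE, edgeR adjusted p = 0.625).

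Cabp4 encodes the calcium-binding protein that binds Cav1.4 and shifts its activation to more negative voltages (ENSMUSG00000024842, chromosome 19, 4135425 to 4139609). It stood at 138.7, 133.1, 150.5 and 154.5 CPM in PBS, against 165.8, 59.5, 57.5 and 162.7 CPM in sIVs. As for Cacna2d4, sIVs 2 and sIVs 5 were above the PBS range and sIVs 3 and sIVs 4 below it, so that the sIVs mean of 111.4 ± 61.1 CPM (SD, n = 4) describes no library. The log2 fold change was -0.37 ± 0.34 (SE, 95% confidence interval -1.12 to 0.38, edgeR adjusted p = 0.628). Cabp4 shares 131 of its 3518 exon bases in GENCODE M21 with Gpr152 on the other strand. The deposited gene length is 1431 bases, so the shared part of the counted bases is not known. Cacnb2 shares 111, 618 and 239 of 13228 exon bases with Gm10848, Gm10849 and Gm13269 on the other strand. Whether the deposited counting used strand is not given in the sources used here.

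**Figure D2:**
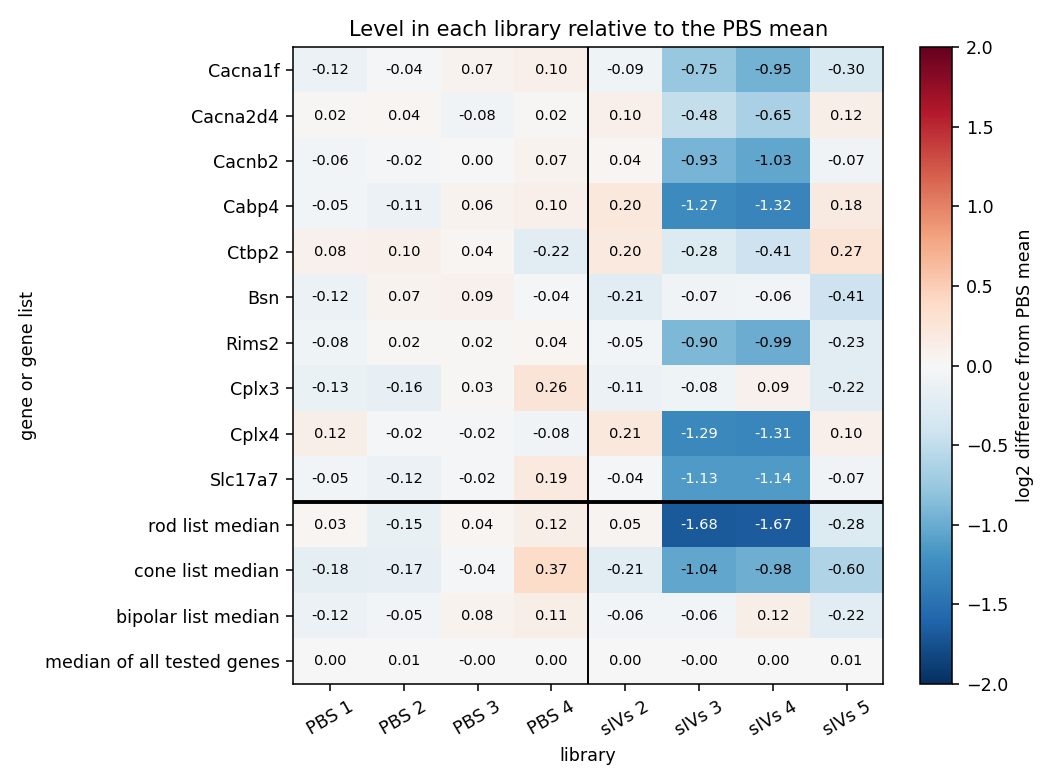
Heat map of log2 level relative to the PBS mean of each gene (rows) in each library (columns), with the medians of the rod, cone and bipolar marker lists and of all tested genes under the thick line. Cabp4 and Cplx4 reach -1.27 to -1.32 in sIVs 3 and sIVs 4, where the rod list median is -1.68 and -1.67 and the bipolar list median -0.06 and 0.12.

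Ribbon and active zone genes differed among themselves. Rims2 encodes a scaffold that couples calcium channels to vesicle release (ENSMUSG00000037386, chromosome 15, 39198261 to 39684372). It stood at 259.3, 277.9, 277.3 and 282.7 CPM in PBS, against 264.4, 147.1, 137.5 and 233 CPM in sIVs. Libraries sIVs 3, sIVs 4 and sIVs 5 lay below all of PBS, and sIVs 2 within it (log2 fold change -0.49 ± 0.19 SE, edgeR adjusted p = 0.286). Bsn encodes bassoon, the large protein that anchors the ribbon at the active zone and also occurs at conventional synapses (chromosome 9, 108096022 to 108190384). It stood at 217, 248.9, 251.2 and 230.7 CPM in PBS, against 204.9, 224.4, 226.9 and 177.3 CPM in sIVs. Unlike for Rims2, sIVs 3 and sIVs 4 were its highest sIVs libraries, inside the PBS range, and sIVs 2 and sIVs 5 were below that range. Its log2 fold change was -0.19 ± 0.09 over all libraries (SE, edgeR adjusted p = 0.386) and -0.31 without sIVs 3 and sIVs 4 (adjusted p = 0.209). Bsn shares 57 of 15938 exon bases with Gm47303 on the same strand.

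Ctbp2 gives rise to the corepressor CtBP2 and, from an internal start, to RIBEYE, the main protein of the ribbon. GENCODE M21 lists both, as a transcript of 445 coding residues (Ctbp2-201) and one of 988 (Ctbp2-214), and the deposited counts sum over the gene (ENSMUSG00000030970, chromosome 7, 132987563 to 133124354). The gene stood at 294.4, 299, 285.6 and 239.7 CPM in PBS, against 320, 229.7, 209.3 and 336.8 CPM in sIVs. Libraries sIVs 2 and sIVs 5 were above all of PBS, and sIVs 3 and sIVs 4 below it, at 0.821 and 0.748 times the PBS mean against 0.413 and 0.399 for Cabp4 (log2 fold change -0.03 ± 0.16 SE, edgeR adjusted p = 0.946). It shares 314 of 6220 exon bases with Fgfr2 on the same strand, and its direction turned under several settings.

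Promoters were looked at because most of the genes were low in the same libraries. RefSeq promoter sequences (GRCm38.p6) were given for 6 of the 10 genes, Cacna1f, Cacnb2, Ctbp2, Bsn, Cplx3 and Slc17a7, as 8 windows. The 250 bases before each start were searched on both strands for TAATCC, the core of the site of the photoreceptor factor CRX, and TGCTGA, a part of the site of the rod factor NRL. These strings occur in 6.3% and 16.1% of all 32851 windows of that length. Each was found in 1 window. The first lies 121 to 116 bases before the internal start of Ctbp2, the one that yields the long transcript, and the other 125 to 120 bases before the start of Cplx3. Both are shown with their surroundings, 5′ to 3′ on the gene's strand, with the match in capitals as its reverse complement. The windows are chr7:133015351-133015380 and chr9:57606389-57606418, both minus strand.
Ctbp2: taaggtttcagaGGATTAataatttaggtc
Cplx3: cctaatcagctgTCAGCAgtagccagcagt
A match is a string in the sequence and no evidence of binding. Cplx3, with the NRL string, was 1 of the 2 genes within the PBS range in sIVs 3 and sIVs 4.

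Complexins bind the assembled fusion machinery and restrain vesicle release, and the retina uses Cplx3 and Cplx4 at its ribbon synapses. Cplx4 (ENSMUSG00000024519, chromosome 18, 65955727 to 65970178) stood at 499.1, 452.2, 451.9 and 434.8 CPM in PBS, against 532.3, 187.5, 184.8 and 491.3 CPM in sIVs. Libraries sIVs 3 and sIVs 4 held about 0.4 times the PBS mean, while sIVs 2 was above all of PBS and sIVs 5 within it (log2 fold change -0.40 ± 0.33 SE, edgeR adjusted p = 0.599). Cplx3 (ENSMUSG00000039714, chromosome 9, 57599992 to 57606281), which is also expressed in amacrine cells, stood at 314.9, 308.8, 350.9 and 414 CPM in PBS, against 319.2, 325.4, 366.8 and 296.3 CPM in sIVs. Its groups overlapped throughout and only sIVs 5 was below the PBS range (log2 fold change -0.09 ± 0.11 SE, 95% confidence interval -0.33 to 0.16, edgeR adjusted p = 0.743).

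Slc17a7 encodes VGLUT1, which loads glutamate into vesicles of photoreceptors and bipolar cells (ENSMUSG00000070570, chromosome 7, 45163949 to 45176142). It was the most abundant of the 10 by CPM, at 1187.5, 1128.9, 1207.4 and 1399.9 CPM in PBS, against 1197.3, 558.5, 557.2 and 1170.7 CPM in sIVs. Libraries sIVs 3 and sIVs 4 lay close together at 0.454 and 0.453 times the PBS mean, and the other sIVs libraries lay within the PBS range. Its log2 fold change was the most negative of the 10, -0.50 ± 0.26 (SE, 95% confidence interval -1.08 to 0.08, edgeR adjusted p = 0.396).

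Per gene length, by the deposited FPKM (fragments per kilobase of gene length, scaled to library depth), the order in PBS was Cplx4 (262 ± 16.3), Slc17a7 (228 ± 21), Cplx3 (117 ± 16), Cabp4 (101 ± 6.79), Cacna2d4 (56.8 ± 1.96), Ctbp2 (44.9 ± 4.5), Cacna1f (42 ± 2.84), Rims2 (26.4 ± 0.94), Bsn (14.8 ± 1.02) and Cacnb2 (13.5 ± 0.471), as mean ± SD over 4 libraries. The PBS ranges of Cplx4 and Slc17a7 overlapped, as did those of Cplx3 and Cabp4, of Ctbp2 and Cacna1f, and of Bsn and Cacnb2. Other neighbours in the order did not overlap. The place of Cabp4 rests on its deposited length of 1431 bases, where GENCODE M21 gives 3518 exon bases. With the longer length its FPKM would be lower. In sIVs 3 and sIVs 4 Cplx3 led, at 110 and 124 FPKM against 107 and 105.4 for Cplx4.

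Relatives of these genes in the same families were set beside them. Of 22 paralogues, all tested, 0 passed the edgeR test, 13 had a negative and 9 a positive log2 fold change, and the median was -0.02. The ratios of these paralogues to their PBS means ran from 0.743 (Cplx1) to 1.56 (Slc17a8) in sIVs 3. The paralogue of smallest p among those with a negative fold change was Cplx2, a complexin of conventional synapses, at -0.24, and among those with a positive one Cacna1d, the Cav1.3 pore subunit gene, at 0.19 (edgeR adjusted p = 0.249 and 0.473). Within sIVs 3 and sIVs 4, Cacna1d stood at 9.4 and 8.67 FPKM against 6.97 ± 0.476 in PBS (SD, n = 4), while Cacna1f stood at 24.9 and 21.7 FPKM against 42. Slc17a6 (VGLUT2, used by ganglion cells) and Rims1, named after their values were seen, stood at 0.922 and 0.964 times and at 0.908 and 0.973 times their PBS means there.

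**Figure D3:**
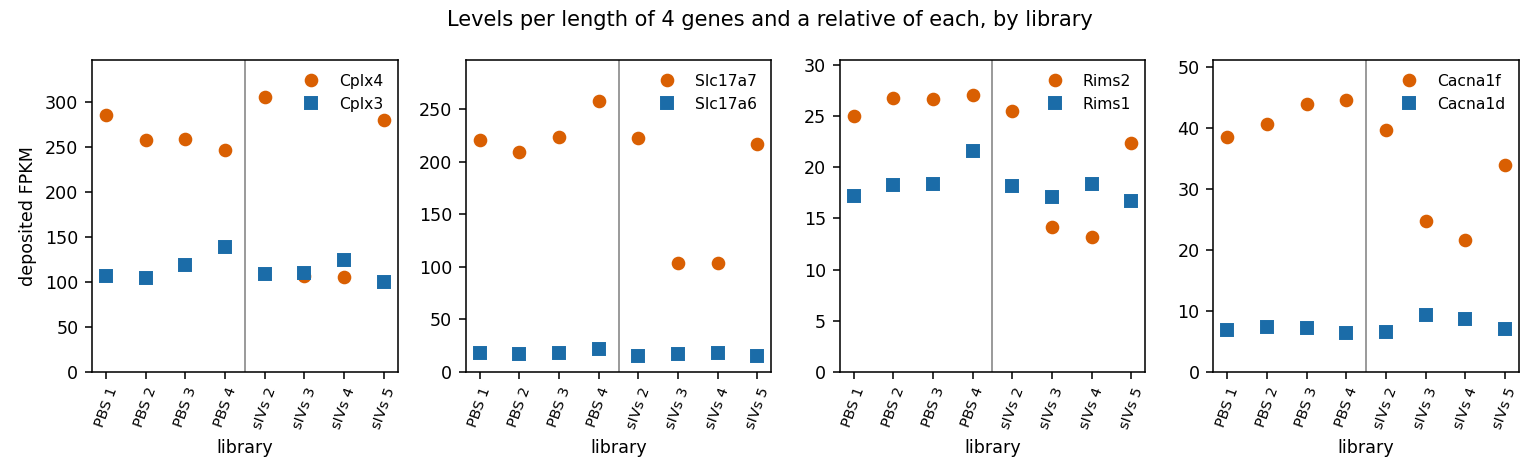
Deposited FPKM (linear axes from 0) of Cplx4, Slc17a7, Rims2 and Cacna1f in orange and of a relative of each (Cplx3, Slc17a6, Rims1, Cacna1d) in blue, by library, with PBS left of the grey line. The orange points are low in sIVs 3 and sIVs 4, where Cplx4 and Rims2 lie below their relatives. The blue points show no such drop, though Slc17a6 and Rims1 lie just below their PBS ranges in sIVs 3.

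Of 19 other active zone and release genes, 0 passed, 17 were negative and 2 positive, with a median of -0.12. The lower one of smallest p was Unc13b, which encodes a vesicle priming protein, at -0.48 ± 0.19 (SE, edgeR adjusted p = 0.281). The higher one was Erc1, an active zone scaffold gene, at 0.19 ± 0.20 (SE, edgeR adjusted p = 0.682). Unc13b stood at 545.2, 592.2, 560.2 and 595.9 CPM in PBS, against 574.2, 315.5, 305.1 and 452.1 CPM in sIVs. Libraries sIVs 3 to 5 were below all of PBS, and sIVs 2 lay within it.

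Of 15 cleft and postsynaptic genes, 0 passed, 8 were negative and 7 positive, with a median of -0.04. Lrit3, whose product helps place postsynaptic channels opposite photoreceptor terminals, had the smallest p in these 3 lists, at -0.48 ± 0.13 (SE) on the log2 scale (edgeR adjusted p = 0.178). Every sIVs library was below every PBS library. It stood at 70.8, 79.2, 67.1 and 74.9 CPM in PBS, against 65.7, 44.6, 43.5 and 55.2 CPM in sIVs. Dag1, the dystroglycan gene, had the smallest p among those higher (0.30 ± 0.16 SE, adjusted p = 0.399). Egflam (pikachurin, the dystroglycan ligand that photoreceptors release into the cleft) and Dmd (dystrophin), named after their values were seen, stood at 0.437 and 0.416 times and at 0.482 and 0.446 times their PBS means in sIVs 3 and sIVs 4.

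**Figure D4:**
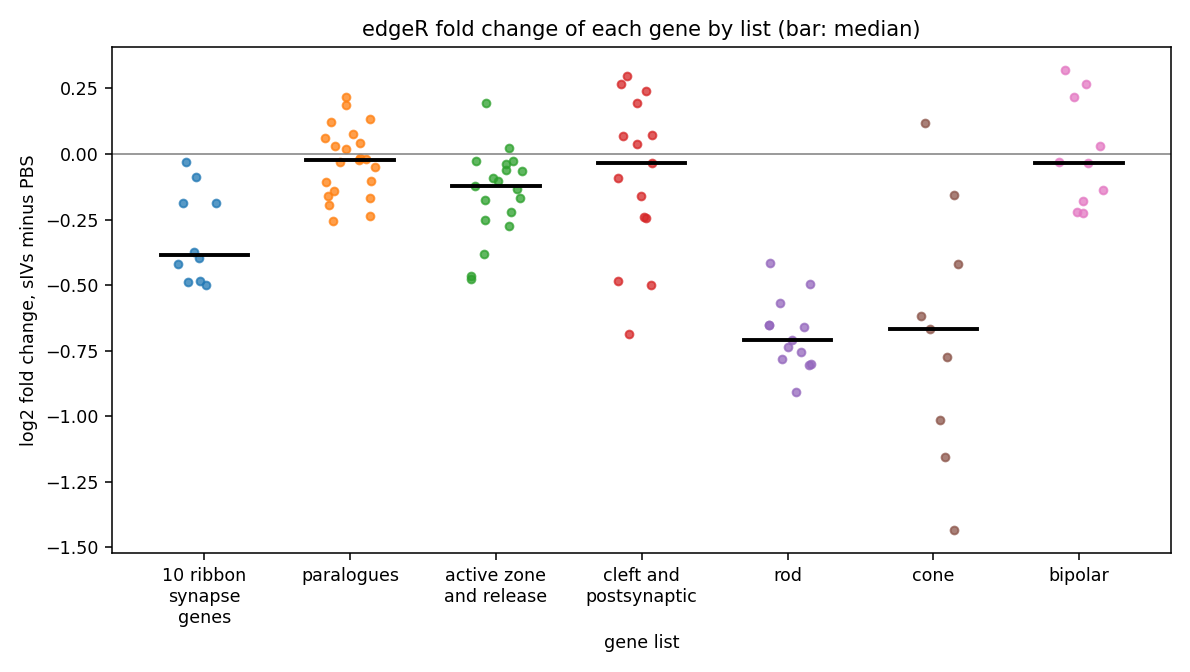
edgeR log2 fold change (sIVs minus PBS) of each gene in 7 lists, with the list median as a black bar. The median of the 10 ribbon synapse genes (-0.39) lies between those of paralogues (-0.02) and rod genes (-0.71). The lists share a few genes.

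Markers of the cell types were set beside the 10 genes. The 13 rod genes had library medians of 0.05, -1.68, -1.67 and -0.28 on the log2 scale in sIVs 2 to 5 relative to PBS, the 9 cone genes -0.21, -1.04, -0.98 and -0.60, and the 10 bipolar genes -0.06, -0.06, 0.12 and -0.22. In sIVs 3 and sIVs 4 all 10 genes stood above the rod median, by 0.39 (Cplx4) to 1.61 (Bsn) and by 0.35 (Cabp4) to 1.76 (Cplx3), and all 10 below the bipolar median, by values from -1.23 (Cplx4) to -0.01 (Bsn) and from -1.44 (Cabp4) to -0.03 (Cplx3). By ratio to the PBS mean, rod genes ran from 0.204 (Gnat1) to 0.416 (Nr2e3) in sIVs 3, and the 10 genes from 0.408 (Cplx4) to 0.947 (Bsn). The cone genes did not move as 1: they ran from 0.130 (Opn1sw) to 1.44 (Pde6c) in sIVs 3. Below all PBS libraries were 3, 7, 7 and 8 of the 9 cone genes in sIVs 2 to 5. Of all genes it was 21.2%, 32.6%, 33.2% and 29.1%. In sIVs 3 and sIVs 4, Pde6c was above all PBS libraries, and Cnga3, named after its values were seen, was within the PBS range. In sIVs 5 the rod genes were at a median ratio of 0.823, and 10 of 13 were below all PBS libraries. Of the 10 genes, 5 were below all PBS libraries there (Cacna1f, Cacnb2, Bsn, Rims2 and Cplx3), against 29.1% of all genes. Cabp4, Cacna2d4 and Ctbp2 were above all PBS libraries, 3 of 10 against 29.8% of all genes.

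All genes of the marker lists were detected. Summed levels ran, in PBS and in sIVs, from 20616 to 24236 and from 6229 to 22991 CPM for rod, from 1262 to 1874 and from 573 to 1198 CPM for cone, and from 1621 to 1854 and from 1562 to 2081 CPM for bipolar genes. They ran from 1255 to 1424 and from 1187 to 1376 CPM for 8 amacrine genes, from 111 to 126 and from 95.1 to 139 CPM for 4 horizontal cell genes, and from 1051 to 1348 and from 982 to 1062 CPM for 9 ganglion cell genes. For 7 Müller glia genes they ran from 3273 to 4151 and from 2116 to 3499.8 CPM, for 9 microglia genes from 147 to 229 and from 133 to 449.7 CPM, and for 5 pigment epithelium genes from 50.5 to 164 and from 18.5 to 97 CPM. By these sums, rod and cone genes were lowest and bipolar and microglia genes highest in sIVs 3 and sIVs 4. The Müller glia sum is carried by Glul, the glutamine synthetase gene, at 1998, 1919, 2541 and 2713 CPM in PBS against 1637, 983, 1090 and 1001 CPM in sIVs. The median log2 level of the 7 Müller glia genes relative to PBS was instead -0.23, 0.62, 0.73 and -0.67 in sIVs 2 to 5, and that of the microglia genes -0.11, 0.90, 1.32 and -0.62. Both lists thus stood higher in the libraries where 8 of the 10 genes were below PBS. Rlbp1, Slc1a3, Aqp4, Kcnj10 and Vim, named after their values were seen, were above all PBS libraries in sIVs 3 and sIVs 4. Vim, the vimentin gene, was so in every sIVs library (log2 fold change 1.28 ± 0.25 SE, edgeR adjusted p = 0.148). In sIVs 5, Rlbp1, Slc1a3, Aqp4 and Kcnj10 were below all PBS libraries. Glul and Abca8a of the Müller glia list and P2ry12 of the microglia list, also named after their values were seen, went the other way from Vim. For these genes every sIVs library was below every PBS library (log2 fold change -0.96, -0.66 and -0.64, edgeR adjusted p = 0.153, 0.226 and 0.223). The part of cell numbers in the results on the 10 genes was not tested.

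The profile of Cabp4 was compared with that of every other protein-coding gene. The 5 closest, by mean absolute difference of log2 level relative to PBS over 8 libraries, were Ppef2 (0.068), Gm48551 (0.07), Ybx3 (0.075), Lbhd1 (0.08) and Rdh8 (0.08). All of these were between -1.26 and -1.43 in sIVs 3 and sIVs 4.

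The result turned on single libraries. Without sIVs 2, Cacna1f and Rims2 passed as lower (log2 fold change -0.65 and -0.67, edgeR adjusted p = 0.0332 and 0.0459), 2 of 10 genes against 2.56% of all genes tested, and 0 of 10 as higher, against 4.83%. Without sIVs 3 and sIVs 4, left out after the data were seen, 0 of 10 passed, where edgeR called 0.00548% of all genes lower and 0.011% higher, and 4 stood positive: Cacna2d4 at 0.11, Cabp4 at 0.19, Ctbp2 at 0.23 and Cplx4 at 0.15. Cacna1f, Rims2, Bsn and Cplx3 were at -0.20, -0.14, -0.31 and -0.18 there, and Cacnb2 and Slc17a7 at -0.01 and -0.06. With 1 library left out at a time, the log2 fold changes of Cabp4, Cplx4 and Cacna2d4 moved by over 1.5 times with each sIVs library. They ran from -0.63 (without sIVs 2) to -0.16 (without sIVs 4) for Cabp4, from -0.68 (without sIVs 2) to -0.19 (without sIVs 4) for Cplx4, and from -0.31 (without sIVs 5) to -0.06 (without sIVs 4) for Cacna2d4. Cacnb2 reached -0.26 without sIVs 4, and Bsn -0.12 without sIVs 5. With limma-voom and sample quality weights, 7 of 10 were called lower, against 14% of all genes. These weights were 0.258 and 0.245 for sIVs 2 and sIVs 5 and 1.84 and 1.22 for sIVs 3 and sIVs 4.

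**Figure D5:**
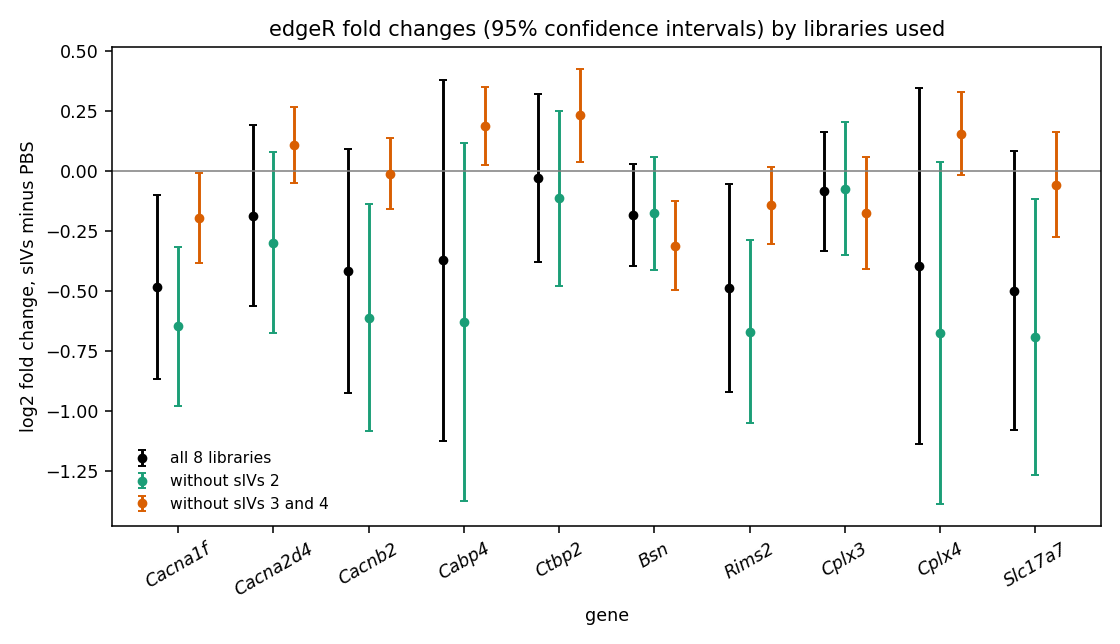
edgeR log2 fold change (sIVs minus PBS, vertical axis) of the 10 genes with 95% confidence intervals, from all 8 libraries (black), without sIVs 2 (green) and without sIVs 3 and sIVs 4 (orange). Without sIVs 3 and sIVs 4, Cacna2d4, Cabp4, Ctbp2 and Cplx4 lie above 0 and Bsn at -0.31.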

How the data were processed

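Per the labels' protocols, RNA from retina was poly(A)-selected, made into dUTP strand-marked libraries and sequenced as paired ends. The submitters' processing notes name mm10, while aligner, counter, annotation release and strand setting are not given in the sources used here. Whole, unnormalised counts, as deposited, were tested. The deposited FPKM, scaled by the authors to gene length and library depth, gave levels per length. Libraries were grouped by title. Counts of all genes were filtered with filterByExpr, scaled by TMM and tested with edgeR 4.0.16 (R 4.3.3, glmQLFit and glmQLFTest, group as the only term, Benjamini-Hochberg over 17725 genes, threshold 0.05). Standard errors come from the F statistic. CPM use the TMM-adjusted totals, and log2 levels by library a prior count of 2. Medians over lists are descriptions.

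The 10 genes and all lists were chosen with earlier results of these data known. Named genes are the 10, the genes of smallest p in each direction of the paralogue, active zone and cleft lists, the 5 closest to Cabp4, and Gnat1, Arr3 and Grm6 as markers. A further marker is not reported here and was left out of the rod list. Any other is said to be chosen after its values were seen, or stands as the extreme of a list. Alternatives were DESeq2 1.42.0, limma 3.58.1 (voom, quality weights, log2(FPKM + 0.1) and log2(FPKM + 1)), other scalings and filters, replicate blocks, each library left out, and, added after seeing the data, sIVs 3 and sIVs 4 left out. The edgeR test was tested on simulated counts for 17725 genes of this comparison: it called 29.2% of the genes given a 1.5-fold change, 60% at 2-fold and 95.4% at 4-fold. These counts were drawn for each gene independently, with the same spread in both groups. In the data the biological coefficient of variation was 22.3% in sIVs and 8.8% in PBS, and sIVs 3 and sIVs 4 shifted together. The simulated shares need not hold for the 10 genes. No libraries agreed within sampling noise (lowest chi-square per gene 3.65, between PBS 1 and sIVs 2). Among pairs of PBS libraries the lowest was 3.84, between PBS 1 and PBS 2.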

Additional observations from a re-analysis of the deposited data

How the results depend on the processing

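Over 21 alternative settings, 192 of 210 fold changes of the 10 genes kept their sign and stayed on the same side of the threshold, 9 passed it and 9 turned sign. The passes were those without sIVs 2 and with quality weights (Cacna1f, Cacna2d4, Cacnb2, Cabp4, Rims2, Cplx4 and Slc17a7). The turns were Ctbp2 with library totals (0.033), without PBS 2 (0.003), sIVs 3 (0.044) or sIVs 4 (0.078), Cplx3 without PBS 4 (0.008), and, without sIVs 3 and sIVs 4, Cacna2d4 (0.108), Cabp4 (0.187), Ctbp2 (0.23) and Cplx4 (0.154). With a library left out, Ctbp2 ran from -0.146 to 0.078 and Cplx3 from -0.147 to 0.008. The cause was not tested. Over all genes, edgeR called 0 lower and 0 higher (2702 at an unadjusted p of 0.05). DESeq2 called 106 and 465, edgeR without a filter 7 and 145, quality weights 2489 and 2484, and edgeR without sIVs 3 and sIVs 4 1 and 2. Leaving out each library gave 0 to 461 lower and 0 to 870 higher, the highest without sIVs 2. For the 10 genes, counts called lower were 7 with quality weights and 0 to 2 with a library left out, and the median was -0.778 with quality weights and -0.62 to -0.208 with a library left out. Counts called lower with quality weights were 1 of 22 paralogues, 9 of 19 active zone and release genes and 6 of 15 cleft and postsynaptic genes. Called higher were 3, 1 and 3 of them, where 14% of all genes were called in each direction. DESeq2 called 2 of 15 cleft and postsynaptic genes lower, against 0.598% of all genes. With a library left out, 0 to 1 active zone and release genes and 0 to 2 cleft and postsynaptic genes were lower, 0 to 1 of the latter higher, and 0 paralogues. List medians moved to 0.123 for cleft genes with quality weights, to -0.049 for active zone genes with library totals, and to -0.14 for paralogues and -0.031 for active zone genes without sIVs 3 and sIVs 4.

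A replicate block by the title numbers (2, 3 and 4 shared) or by the biosample numbers of the descriptions called 0 of the 10 genes and 0 genes in all, with medians of -0.651 and -0.51 for the 10. Same-numbered libraries deviated from their group means with correlations of -0.06 to 0.055 and -0.075 to 0.098. With 4 libraries per group, these values cannot tell whether such libraries share more than a number. Not every library correlated best with its own number.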

Other observations

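Ratios of deposited FPKM within a library show how the 10 genes stood to each other. Cplx4 over Cplx3 was 2.67, 2.47, 2.17 and 1.77 in PBS 1 to 4 and 2.81, 0.972, 0.85 and 2.80 in sIVs 2 to 5. Rims2 over Bsn was 1.83, 1.71, 1.69 and 1.88 in PBS and 1.98, 1.01, 0.93 and 2.02 in sIVs. Cabp4 over Cacna1f was 2.51, 2.28, 2.39 and 2.40 in PBS and 2.93, 1.67, 1.85 and 3.35 in sIVs, with the deposited length of Cabp4. For each of these pairs, sIVs 3 and sIVs 4 were below the PBS range and sIVs 2 and sIVs 5 above it. The pairs were chosen after their values were seen, and no test was made.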
